A study of Mus musculus with 23 samples.

Results

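Dexamethasone (Dex), a synthetic glucocorticoid, was compared with its vehicle in mouse embryonic fibroblasts (MEFs) that carry the double mutant glucocorticoid receptor (GR) on both alleles, GRD+L/D+L. The comparison holds 6 of the 23 RNA-seq libraries of the series, chosen by their genotype and treatment labels alone: 3 libraries of cells after 5 h with 10 nM Dex and 3 of cells after 5 h with solvent. In GRD+L, the DNA-binding domain has threonine in place of an alanine (D) and the ligand-binding domain has alanine in place of an isoleucine (L), both in 1 receptor protein. The other groups of the series are GRwt/wt, GRD/D and GRL/L MEFs under the same 2 treatments, with 3 libraries per group except GRD/D vehicle with 2. All cells came from mid-gestation FVB/NJ embryos of heterozygous intercrosses, after removal of head and organs, and grew in serum-containing medium. The D change comes from the older GRdim line, and the L change was added by CRISPR/Cas9 in GRD/wt zygotes, with founders backcrossed to FVB/NJ. Both are in the germline, so every cell of a culture carries them. The primary cultures are described as 3 per genotype, each from another mouse. In bulk RNA, fewer cells of a type and less RNA per cell cannot be told apart.

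GR is a nuclear receptor that waits in the cytoplasm in a complex with HSP90 and co-chaperones, enters the nucleus once a glucocorticoid is bound, and acts on genes as a monomer, a dimer or a larger assembly. Dimers bind palindromic glucocorticoid response elements (GREs) and raise genes such as Fkbp5, Tsc22d3 and Per1, while the receptor also lowers inflammatory genes driven by AP-1, NF-kB and interferon regulatory factors. Fibroblasts are a classic glucocorticoid target and carry much GR. The question put by the double mutant is how much of the Dex response is left when both interfaces are altered.

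No gene was called with Dex in GRD+L/D+L, and the glucocorticoid-induced genes stayed within the spread between libraries. A gene counted as called when its adjusted p (Benjamini-Hochberg) was 0.05 or less and its log2 fold change (LFC) was 1 or more in size, by edgeR's quasi-likelihood test with all 23 libraries in 1 fit. Called genes were 0 of 15748 tested (0%), and 54 genes had an unadjusted p under 0.05, which is 0.343%. DESeq2 called 5 genes, each with at most 2 reads in any of the 6 libraries, and had 65 unadjusted p-values under 0.05. The same rule called 25 genes in GRwt/wt (0.159%), all of them higher. The GRwt/wt count and its direction depended on the fit: DESeq2 called 286, of which 121 were higher and 165 lower, the replicate block 199 (181 higher and 18 lower) and DESeq2 with the block 691 (638 higher and 53 lower). When the equally numbered vehicle and Dex libraries of GRD+L/D+L were compared as pairs, 11 genes had an adjusted p of at most 0.05 among 13722 tested (0.0802%), and none of these reached an absolute LFC of 1. Among the 11 were the interferon-stimulated genes Ifit1 and Oasl2, which fell.

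The promoters of 3 interferon-stimulated genes are shown here to display a sequence repeat known from this class of genes, and were picked among the members that hold it. Of the 3, Ifit1 passed the paired test in GRD+L/D+L, and Ifit3 and Isg15 did not. Interferon-stimulated genes are switched on by STAT and IRF factors through the interferon-stimulated response element (ISRE), a repeat of GAAA. The 200 bases shown end 51 bases upstream of the RefSeq start in GRCm38.p6 and read 5' to 3' along the gene's strand, and capitals mark each match to GAAA, any 2 bases and GAAA again, on either strand.
Ifit1: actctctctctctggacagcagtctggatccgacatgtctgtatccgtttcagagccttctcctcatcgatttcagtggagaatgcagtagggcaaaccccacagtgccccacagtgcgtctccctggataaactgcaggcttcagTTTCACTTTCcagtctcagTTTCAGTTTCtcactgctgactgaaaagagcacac
Ifit3: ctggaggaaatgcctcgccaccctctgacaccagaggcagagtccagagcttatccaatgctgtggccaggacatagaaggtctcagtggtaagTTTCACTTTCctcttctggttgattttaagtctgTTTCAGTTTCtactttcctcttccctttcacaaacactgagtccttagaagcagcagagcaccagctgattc
Isg15: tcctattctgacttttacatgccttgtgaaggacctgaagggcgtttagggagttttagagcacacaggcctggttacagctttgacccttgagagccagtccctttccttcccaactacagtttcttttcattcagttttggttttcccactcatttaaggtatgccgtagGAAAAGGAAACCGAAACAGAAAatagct
The Ifit1 stretch lies at chr19:34640639-34640838 on the plus strand, with matches that begin 104 and 85 bases upstream. That of Ifit3 lies at chr19:34583279-34583478 on the plus strand, with matches from 156 and 122 bases upstream. That of Isg15 lies at chr4:156200869-156201068 on the minus strand, with 3 overlapping matches from 78, 72 and 66 bases upstream. The repeat was found in 7 of the 13 interferon-stimulated genes with a promoter in the table (53.8%), taking the 250 bases upstream of the start, and in 821 of all 27025 promoters (3.04%). Oasl2 did not hold these letters in that window.

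The same windows were searched for GR's own letters. The GRE half-site AGAACA was found on either strand in 1 of 17 glucocorticoid-induced genes (5.88%), Sgk1, and in 4369 of all promoters (16.2%). Among the genes called with Dex in GRwt/wt, 4 of the 17 with a promoter held it (23.5%): Peak1, Pld1, Dock9 and Akap13. The full palindrome (AGNACA, any 3 bases and TGTNCT), which can overlap the half-site, was in 16 promoters of all (0.0592%) and in none of these 2 lists. The half-site was also in 2 of 13 interferon-stimulated promoters (15.4%), Oasl2 among them. The ISRE-type repeat was in 2 of 17 glucocorticoid-induced ones (11.8%). These are letters in a short window next to the start and say nothing of binding or of distant elements.

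The 6 libraries held 17387952 to 23117080 counted reads (16452539 to 23117080 over the series) and 18804 to 19578 genes with a read. The 8 fibroblast markers were all present, at a summed 32568 to 56944 CPM (counts scaled to a library of 1000000). Erythroid and epithelial markers summed to at most 1.76 CPM, endothelial ones to 3.63 to 21.4, skeletal muscle ones to 2.38 to 19.6 and neural and Schwann ones to 14.0 to 63.7 CPM. Macrophage markers summed to 83.7, 9.79 and 56.3 CPM in vehicle replicates 1 to 3 and to 79.7, 8.10 and 57.1 in the Dex libraries, the same order in both groups. All 6 libraries carried Y-linked transcripts and little Xist (at most 0.287 CPM). Outside this genotype, GRwt/wt vehicle replicate 1 stood apart from all libraries (median Spearman correlation 0.838, against at least 0.951 for any other library), and GRwt/wt vehicle replicate 3 held 4992 CPM of macrophage markers, against 17.3 to 101 in the other GRwt/wt libraries. Both enter the differences from GRwt/wt given below.

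Replicate number, not Dex, set most of the variation among the 6 libraries. Over 12887 genes of at least 1 CPM, 94.4% of the squared variation of log2 CPM lay between the 3 numbers, 2.05% between vehicle and Dex, and 3.51% was left. Equally numbered vehicle and Dex libraries deviated together from their group means (r = 0.942, 0.870 and 0.820 across genes, which are not independent replicates). Of those genes, 1872 were higher with Dex in all 3 pairs and 1679 lower, together 27.6%. With only 3 pairs many genes agree in direction without any effect, and this share was not tested.

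Replicate 1 differed most. Igfbp2, which encodes a binding protein for insulin-like growth factors, stood at 495 CPM in vehicle replicate 1 and 529 in Dex replicate 1, and at no more than 2.12 CPM in the other 4 libraries. Col2a1, the collagen of cartilage, followed the same order, with 184 and 231 CPM in replicate 1 and at most 0.686 elsewhere. Pou3f3 (a POU-domain transcription factor), Msln (mesothelin) and Tspan13 (a tetraspanin) completed the 5 most variable genes, at 53.6 to 101 CPM in replicate 1 and at most 0.471 elsewhere. The markers moved likewise: the cartilage markers summed to 245 and 296 CPM in the pair of replicate 1 and to 10.5 to 17.1 in the other 4 libraries. Their part in any result was not tested, and a comparison within pairs removes what both libraries of a number share.

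The receptor's own transcript was present at like levels in both groups. Nr3c1, which encodes GR, stood at 128, 252 and 234 CPM in vehicle replicates 1, 2 and 3 and at 119, 265 and 228 CPM in the Dex libraries. Replicate 1 was the lowest in both groups, and the groups overlapped fully. The LFC was -0.0072 (95% interval -1.25 to 1.24), and in the paired fit -0.027 (SE 0.048, adjusted p = 0.956). A point mutation does not remove the transcript, so this level does not check the genotype labels.

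The precision of the null result differed between fits. With all libraries in 1 fit the median standard error of the LFC in GRD+L/D+L was 0.316 and the median absolute LFC 0.0755. The 95% interval lay between -1 and 1 for 9669 of the 15670 genes that had an interval (61.7%). A change of 2-fold was outside the interval for these and inside it for the rest of the 15670. In the paired fit of the 6 libraries the median standard error was 0.0801, and 12863 genes (93.7%) had an interval within -1 to 1.

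**Figure D1:**
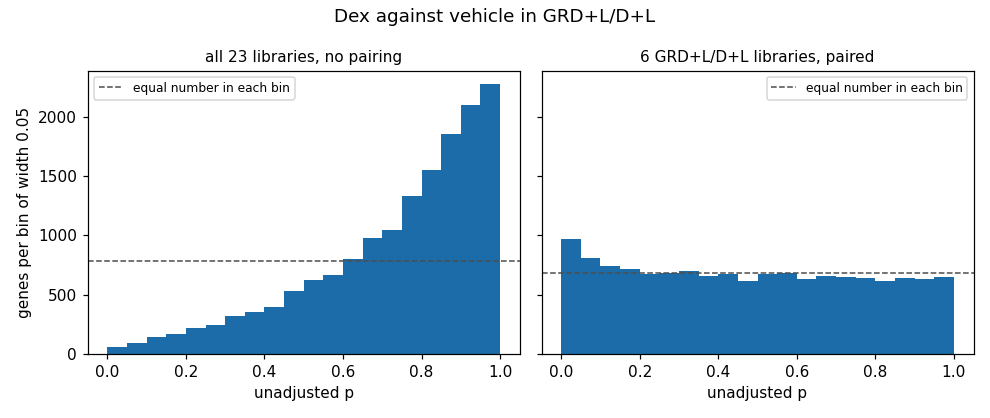
Histograms of unadjusted p-values for Dex against vehicle in GRD+L/D+L, with p on the x axis and genes per bin of width 0.05 on the y axis. Left, all 23 libraries in 1 fit without pairing, where 54 of 15748 genes fall under 0.05 and the bins rise towards 1. Right, the paired fit of the 6 libraries, where 971 of 13722 genes fall under 0.05. The dashed line marks an equal number in each bin.

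The 2 histograms differ in shape. Without pairing, the p-values pile up near 1, and the lowest bin holds far fewer genes than an even spread over the bins would. With pairing the bin of the smallest p-values is the tallest, above the line of equal numbers, and the bins from the middle to 1 are close to level. The tallest bin holds 971 genes (7.08%), of which 463 were higher and 508 lower. The paired test rests on 3 pairs, and the adjusted p alone, without the fold threshold, was set as its rule after the values were seen.

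None of the 20 glucocorticoid-induced genes passed either test in GRD+L/D+L. Of these, 8 had a higher and 12 a lower fitted level with Dex, with a median LFC of -0.085, beside 7963 higher and 7771 lower genes and a median of 0.0014 over all genes tested. The list median was -0.058, -0.056 and -0.051 in pairs 1, 2 and 3 (log2 of CPM plus 0.5). Its median LFC was 1.42 in GRwt/wt, 0.027 in GRL/L and 0.17 in GRD/D. In the paired fit 1 of the 18 members tested had an unadjusted p under 0.05 upwards and 4 downwards, beside 463 upwards and 508 downwards of all 13722 genes (7.08% together).

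Feedback and anti-inflammatory targets came first. Fkbp5 encodes the HSP90 co-chaperone FKBP51, which lowers the receptor's affinity for hormone. It stood at 20.3, 34.4 and 29.0 CPM in vehicle replicates 1 to 3 and at 21.7, 35.9 and 30.2 CPM with Dex. Dex libraries were higher in all 3 pairs, by far less than the distance between replicate numbers, and the groups overlapped. Its LFC was 0.068 (95% interval -0.45 to 0.58), against 3.49 in GRwt/wt. The paired fit gave 0.067 (SE 0.073, adjusted p = 0.911).

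Tsc22d3 encodes GILZ, a leucine-zipper protein that restrains NF-kB and AP-1. Its levels were 28.9, 55.2 and 44.0 CPM with vehicle and 25.2, 57.6 and 47.2 CPM with Dex, lower in pair 1 and higher in the other 2. The LFC was 0.023 (-0.53 to 0.58), beside 1.92 in GRwt/wt. Dusp1, a phosphatase that switches off p38 and JNK, was at 11.0, 11.8 and 9.66 CPM with vehicle and at 9.90, 9.89 and 9.23 with Dex. It was lower in all 3 pairs, with an LFC of -0.16 (-0.56 to 0.24) that did not pass the test, where GRwt/wt gave 0.98.

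The transcription factors and clock genes that glucocorticoids raise gave like results. Per1, a repressor of the circadian clock, read 24.0, 28.5 and 25.8 CPM with vehicle and 26.8, 26.2 and 22.1 CPM with Dex, higher in 1 pair and lower in 2. Its LFC was -0.063 (-0.45 to 0.32), against 1.85 in GRwt/wt. Klf9, a Kruppel-like factor, was at 43.8, 33.2 and 40.7 CPM with vehicle and 48.2, 35.5 and 41.9 with Dex, higher in every pair by a little. The LFC of Klf9 was 0.095 (-0.63 to 0.82) and its paired adjusted p 0.826. Cebpd had an LFC of -0.11 and Zbtb16, a zinc-finger repressor, had 1 read in the 6 libraries, so no fold is given.

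Metabolic and signalling targets were likewise within the spread. Pdk4, the kinase that inactivates pyruvate dehydrogenase, stood at 252, 86.3 and 63.9 CPM with vehicle and at 258, 87.5 and 61.8 with Dex, a distance of about 4-fold between replicate numbers and almost none within them. Its paired LFC was 0.0029 (SE 0.049), and in GRwt/wt the LFC was 3.67. Errfi1, an inhibitor of EGFR signalling, was higher with Dex in all 3 pairs, at 219, 32.4 and 41.2 CPM with vehicle and 248, 35.5 and 42.5 with Dex. Its paired LFC of 0.12 (SE 0.054) had an unadjusted p of 0.030 and an adjusted p of 0.652. Sgk1, a kinase that regulates ion transport, had an LFC of -0.0037 (-0.61 to 0.60).

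With Dex 7 of the 20 members were lower in all 3 pairs and 3 were higher in all 3. Over all 15748 genes 1997 were lower and 2213 higher in all pairs. Mt1 and Mt2, the metal-binding metallothioneins, had paired LFCs of -0.13 (SE 0.047) and -0.15 (SE 0.048), lower in all 3 pairs. Ddit4, an inhibitor of mTORC1, gave -0.15 (SE 0.053), and Angptl4, an inhibitor of lipoprotein lipase, -0.12 (SE 0.048). The unadjusted p-values of these 4 were between 0.0043 and 0.016 and the adjusted ones between 0.434 and 0.583, so none passed.

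**Figure D2:**
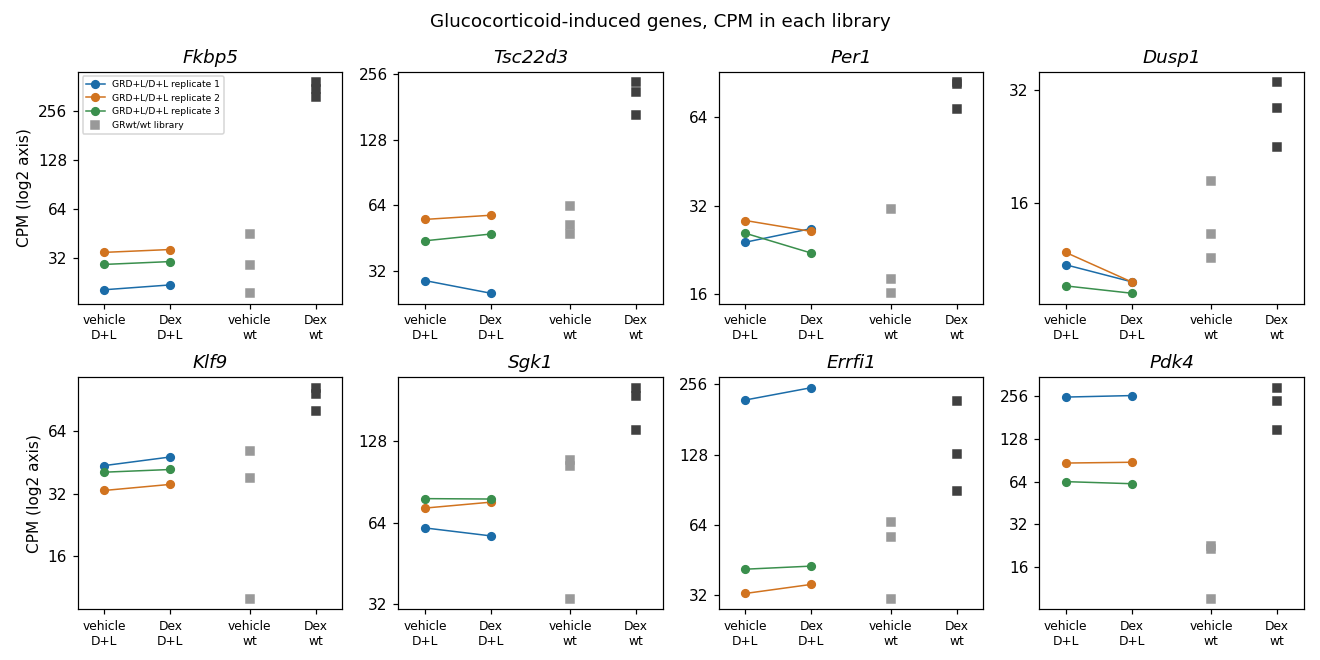
CPM on a log2 axis for 8 glucocorticoid-induced genes. Coloured points joined by lines are the equally numbered vehicle and Dex libraries of GRD+L/D+L, and grey squares the single GRwt/wt libraries (light, vehicle, dark, Dex). The lines are close to level, as for Fkbp5 with 20.3 to 34.4 CPM with vehicle and 21.7 to 35.9 CPM with Dex, while its GRwt/wt Dex libraries sit between 311 and 384 CPM.

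The levels reached in GRwt/wt set the scale of these lines. With Dex the GRwt/wt libraries held 311 to 384 CPM of Fkbp5, 166 to 235 of Tsc22d3 and 68.3 to 83.9 of Per1, and their vehicle libraries held 19.3 to 44.9, 47.3 to 63.3 and 16.1 to 31.2 CPM. The vehicle libraries of GRD+L/D+L lay within the GRwt/wt vehicle range for Fkbp5 and Per1, and 2 of the 3 lay below it for Tsc22d3. For Pdk4 they lay above it, at 63.9 to 252 CPM against 9.60 to 22.3. Errfi1 stood at 219 CPM in vehicle replicate 1 of GRD+L/D+L, above the 89.4 to 217 CPM of the GRwt/wt Dex libraries.

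The response of 4 genes differed from that of GRwt/wt, 0.0254% of the 15748 genes tested, each by a smaller response in GRD+L/D+L. For Fkbp5 the difference of LFCs was -3.42 (SE 0.344, adjusted p = 0.000285) and for Per1 it was -1.91 (SE 0.257, adjusted p = 0.00681). Wee1, the kinase that holds CDK1 inactive before mitosis, differed by -1.46 (SE 0.209, adjusted p = 0.0103). It stood at 19.6, 22.5 and 19.8 CPM with vehicle and 17.4, 19.7 and 21.5 with Dex in GRD+L/D+L. Zhx3, a zinc-finger and homeobox repressor, differed by -1.47 (SE 0.239, adjusted p = 0.0362), with 36.4, 28.1 and 27.3 CPM with vehicle and 42.5, 31.9 and 27.6 with Dex. For Wee1 and Zhx3 the vehicle and Dex ranges of GRD+L/D+L overlapped, while the GRwt/wt Dex libraries held 37.2 to 54.0 CPM of Wee1 and 57.2 to 78.8 of Zhx3, above each GRwt/wt vehicle library (14.6 to 19.5 and 19.7 to 23.2 CPM).

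The number of such genes moved with the processing. A replicate block gave 16 genes, all with a smaller response in GRD+L/D+L, among them Fkbp5, Per1, Zhx3, Tsc22d3, Pdk4, Mt2 and Rgs2 but not Wee1 (adjusted p = 0.0734), although the numbers do not pair the GRwt/wt libraries. The count was 8 without GRwt/wt vehicle replicate 1, 9 without GRwt/wt vehicle replicate 3, and 0 when only the 2 genotypes compared were fitted.

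The 25 genes called with Dex in GRwt/wt were followed in GRD+L/D+L. They were chosen by their GRwt/wt values, so their smaller response elsewhere is a description. Of the 25, 7 had a mean under 1 CPM in GRD+L/D+L. The median LFC in GRD+L/D+L was 0.023, and 0 of the 25 had an unadjusted p under 0.05. The median of the same genes was 1.64 in GRwt/wt, 0.0033 in GRL/L and 0.38 in GRD/D. In the 3 pairs 4 of the 25 were higher with Dex each time (Fkbp5, Peak1, Zhx3 and Col11a1) and none lower each time.

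Peak1, a pseudokinase of the cytoskeleton, came nearest to a change among them. It read 254, 211 and 232 CPM with vehicle and 338, 233 and 248 CPM with Dex. Its paired LFC was 0.22 (SE 0.052) with an unadjusted p of 0.00022 and an adjusted p of 0.157, beside 1.79 in GRwt/wt. Col11a1, a fibrillar collagen chain, had 743, 918 and 997 CPM with vehicle and 833, 927 and 1052 with Dex, an LFC of 0.081 (-0.53 to 0.70) against 1.62 in GRwt/wt. Rasd1, Fam107a, Card14, Hif3a and AC103362.1 stayed below 0.6 CPM in every GRD+L/D+L library, where a response could not be measured well.

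The other members of these 25 spanned signalling, stress and transcription. Sesn1, a stress-induced inhibitor of mTORC1, read 45.9, 64.8 and 44.4 CPM with vehicle and 45.0, 61.0 and 46.7 with Dex, an LFC of -0.023 (95% interval -0.44 to 0.39). Pld1, a phospholipase D, read 31.8, 30.0 and 32.0 CPM with vehicle and 31.4, 32.0 and 31.4 with Dex, nearly the same value in all 6 libraries, where GRwt/wt gave 1.64. Gclc, the catalytic subunit of glutathione synthesis, had an LFC of 0.067 (-0.39 to 0.53) beside 1.16. Dock9, an exchange factor for CDC42, had -0.0054 (-0.44 to 0.43), Rasa3, a Ras GTPase-activating protein, -0.070 (-0.50 to 0.36), and Med13l, of the Mediator kinase module, 0.026 (-0.37 to 0.42). Akap13, a RhoA exchange factor and kinase anchor, had -0.055 (-0.45 to 0.34), and Ust, a sulfotransferase for glycosaminoglycans, 0.15 (-0.12 to 0.42) beside 1.00 in GRwt/wt. Klf15, a Kruppel-like factor of metabolism, was at 0.460 to 1.63 CPM in the 6 libraries, with an LFC of -0.031 (-0.84 to 0.78) against 1.83.

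**Figure D3:**
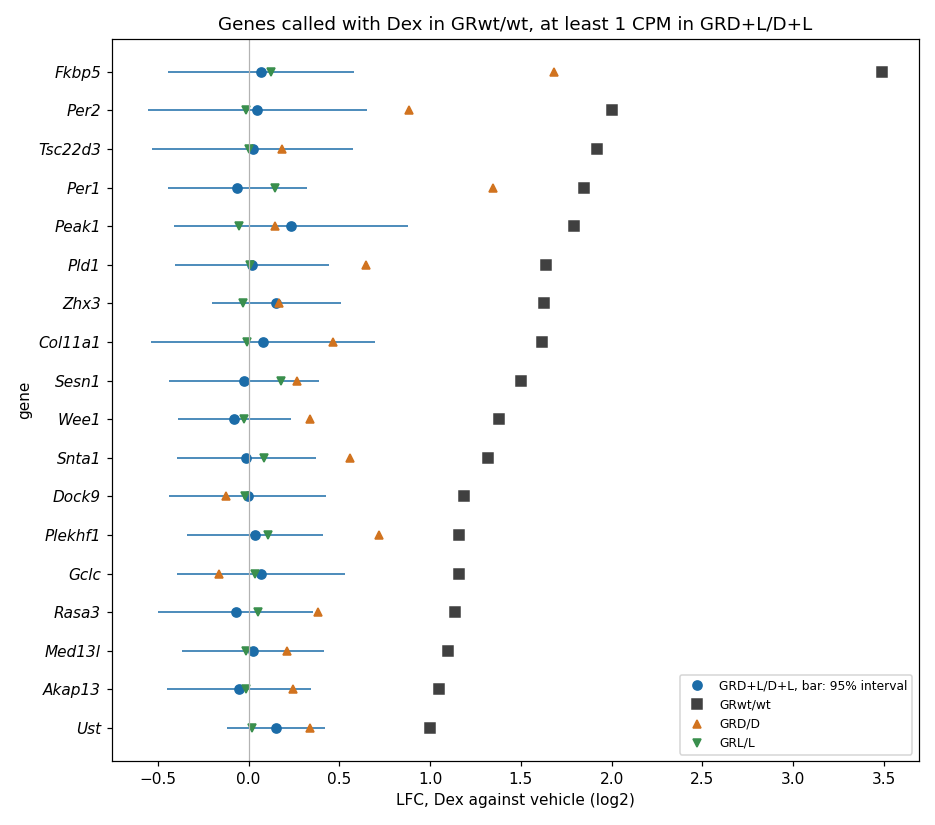
LFC of Dex against vehicle (x axis, log2) for 18 of the 25 genes called with Dex in GRwt/wt, those with a mean of at least 1 CPM in GRD+L/D+L. Blue circles with 95% intervals are GRD+L/D+L, black squares GRwt/wt, orange triangles GRD/D and green inverted triangles GRL/L. The circles lie between -0.079 (Wee1) and 0.23 (Peak1), and each interval includes 0.

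GRD+L/D+L and GRL/L were not told apart at these 25 genes or elsewhere. No gene's response differed between the 2 genotypes by edgeR, and 61 genes had an unadjusted p under 0.05. DESeq2 gave 5, the same nearly absent genes that it called for Dex itself. The difference was -0.053 for Fkbp5 (95% interval -0.78 to 0.67), 0.020 for Tsc22d3 (-0.76 to 0.80) and -0.21 for Per1 (-0.75 to 0.33). With the numbers of the 3 mutant genotypes as a block, the intervals narrowed to -0.26 to 0.14 for Fkbp5, -0.21 to 0.19 for Tsc22d3 and -0.45 to 0.027 for Per1, and again 0 genes were called, with 416 unadjusted p-values under 0.05. An interval within -1 to 1 was reached by 47.5% of the genes that had one without the block.

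Against GRD/D, whose receptor carries only the D change, 0 genes were called by edgeR, 103 had an unadjusted p under 0.05, and DESeq2 called 4 (Per1 and 3 of the nearly absent genes). Fkbp5 and Per1 had the values to look at. Fkbp5 stood at 93.9 to 118 CPM in the GRD/D Dex libraries and at 31.1 and 32.6 CPM with vehicle, and the difference of the GRD+L/D+L response was -1.61 (SE 0.365, unadjusted p = 0.000411, adjusted p = 1.00). Per1 differed by -1.41 (SE 0.273, unadjusted p = 8.2e-05, adjusted p = 1.00). The replicate numbers do not pair the GRD/D libraries. Number 2 joins a vehicle library with 89.9 CPM of the Y-linked Ddx3y and 0.052 CPM of Xist to a Dex library with 0 and 346 CPM, which are thus of unlike sex. Number 3 has a Dex library but no vehicle library, so with the block the GRD/D response rests on numbers 1 and 2 alone. With the numbers as a block in the 3 mutant genotypes 32 genes were called, 14 with a higher and 18 with a lower response in GRD+L/D+L, and the Y-linked Ddx3y, Eif2s3y, Kdm5d and Uty were among them. These 4 were also the whole of the calls with the block over all libraries. In the block fit of the mutants Fkbp5 differed by -1.65 (SE 0.100, adjusted p = 8.2e-07), Per1 by -1.46 (SE 0.124, adjusted p = 4.0e-05) and Angpt2, a ligand of the endothelial receptor TIE2, by -1.13 (SE 0.142, adjusted p = 0.00153). For Fkbp5 and Per1 the differences were of like size with and without the block.

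Genes for the proteins that hold the receptor and work with it did not pass the test. Of 12 chaperones and co-chaperones of GR, 8 had a higher and 4 a lower fitted level, between LFCs of -0.064 (Cdc37, a kinase co-chaperone) and 0.15 (Ppid, cyclophilin 40), and none was called. Hsp90ab1, the constitutive HSP90, was at 2304, 2077 and 1986 CPM with vehicle and 2293, 2093 and 2012 with Dex. The median of this list was 0.017. Of 8 genes for steroid receptors and ligand handling 3 were higher and 5 lower. The steroid efflux pump Abcb1b read 26.3, 7.23 and 11.2 CPM with vehicle and 21.9, 7.07 and 10.5 with Dex, lower in each pair with a paired LFC of -0.16 (SE 0.101).

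Coregulators gave a median of 0.011 over 10 genes, 6 higher and 4 lower. Of 17 circadian clock genes 10 were higher and 7 lower, with a median of 0.049, and 0 had an unadjusted p under 0.05 even in the paired fit. Per2, called in GRwt/wt with an LFC of 2.00, read 5.34, 4.94 and 4.59 CPM with vehicle and 7.29, 2.99 and 5.10 with Dex here.

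Interferon-stimulated genes mostly had lower levels with Dex in GRD+L/D+L, and 2 of them fell in the paired fit. Of 18 genes 16 had a negative and 2 a positive LFC, with a median of -0.39, and 11 were lower in all 3 pairs and none higher in all 3, against 1997 lower and 2213 higher in all pairs among the 15748 genes. In the paired fit 8 of the 15 members tested had an unadjusted p under 0.05, all downwards. Of all 13722 genes 463 had one upwards and 508 downwards (7.08% together). The adjusted threshold was passed by 2 members, where 0.0802% of all genes passed it. No member was called with all libraries in 1 fit, where 1, Irf7, had an unadjusted p under 0.05. The counts over the list are a description.

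Ifit1, whose protein binds viral RNA lacking cap methylation, stood at 25.5, 8.32 and 16.0 CPM with vehicle and at 8.05, 5.63 and 11.2 CPM with Dex. It fell in each pair, most in pair 1, while the 2 groups overlapped when pairs were ignored. The paired LFC was -0.97 (SE 0.147, adjusted p = 0.00143). Without pairing the 95% interval of the LFC was -2.29 to 0.29, and the gene did not pass. Its promoter is the first of those printed above, with 2 matches to the ISRE-type repeat.

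Oasl2, an oligoadenylate synthetase-like antiviral protein, stood at 17.3, 3.06 and 4.65 CPM with vehicle and 7.45, 1.90 and 3.10 with Dex. It fell in each pair, with a paired LFC of -0.94 (SE 0.160, adjusted p = 0.00484). Ifit3, which binds IFIT1, read 14.1, 6.54 and 10.2 CPM with vehicle and 5.11, 4.43 and 9.12 with Dex, lower in each pair with a paired LFC of -0.74 (SE 0.162) that missed the threshold (adjusted p = 0.0862). Isg15, a ubiquitin-like modifier, read 19.2, 4.85 and 8.01 CPM with vehicle and 10.2, 3.97 and 7.97 with Dex, and its paired LFC of -0.48 (SE 0.141) had an adjusted p of 0.342. In each of these 4 genes replicate 1 had the highest vehicle level and the largest drop.

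The other members did not pass the adjusted threshold or were too low for the paired fit. Usp18, which removes ISG15 from its targets, had a paired LFC of -0.66 (SE 0.185), Ifi44 -0.57 (SE 0.203) and Irf7, a transcription factor of interferon genes, -0.46 (SE 0.168), all lower in each pair. Stat2 had -0.17 (SE 0.064). Bst2, which tethers virions to the cell, was lower in each pair by a little, at 44.6, 27.7 and 32.7 CPM with vehicle and 40.8, 24.8 and 31.0 with Dex. Ifit2, at 34.2 to 39.4 CPM with vehicle and 31.3 to 35.4 with Dex, had a paired LFC of -0.14 (SE 0.072). Rsad2 and Mx1, at or below 1.14 CPM, were lower in each pair on too few reads for the paired fit, with LFCs of -1.49 (95% interval -4.25 to 1.27) and -0.99 (-3.76 to 1.78) in the fit of all libraries. The RNA sensor Ddx58 had -0.0066 (SE 0.057). Cmpk2, a mitochondrial kinase next to Rsad2 that is also interferon-stimulated, was named by its small unadjusted p and not by the list: 4.04, 1.55 and 1.53 CPM with vehicle and 1.58, 1.21 and 1.38 with Dex.

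**Figure D4:**
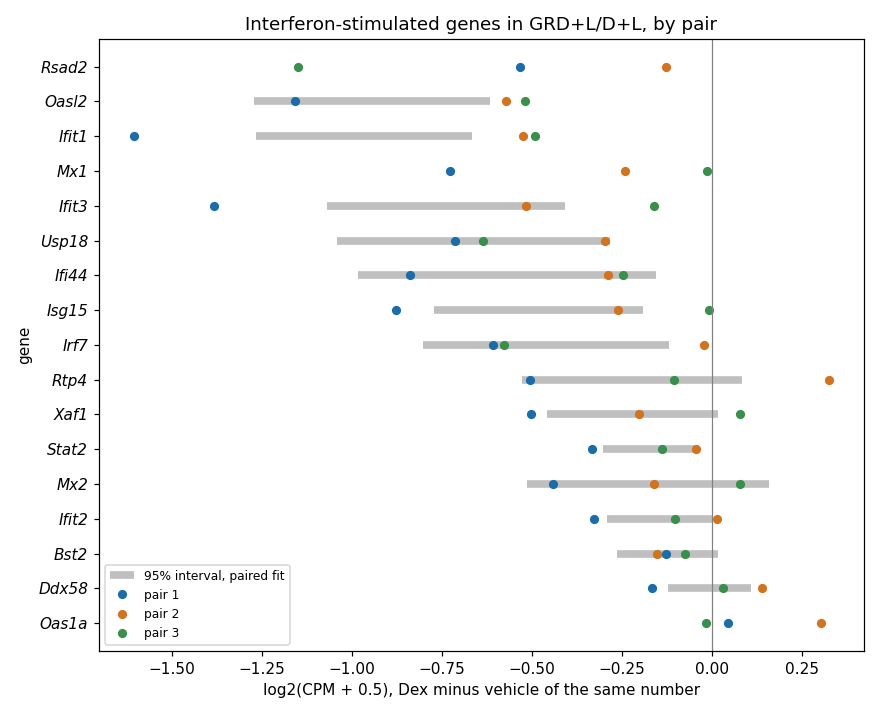
Difference of log2(CPM + 0.5), Dex minus vehicle, for each pair of GRD+L/D+L (coloured points, x axis) and 17 of the 18 interferon-stimulated genes (y axis), with the 95% interval of the paired fit as a grey bar where the gene was tested. Most points lie left of 0, and pair 1 is the lowest for Ifit1, Oasl2, Ifit3 and Isg15.

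The list had a negative median in every genotype. Its median LFC was -0.23 in GRwt/wt, -0.21 in GRL/L and -0.15 in GRD/D, beside -0.39 in GRD+L/D+L. For Ifit1 the LFC was -0.37 in GRL/L, -0.66 in GRD/D and 0.49 in GRwt/wt, the last with 0.717 CPM in vehicle replicate 1, the library that stood apart. In the block fit of the mutant genotypes the difference between GRD+L/D+L and GRL/L was -0.60 for Ifit1 (95% interval -1.18 to -0.026), -0.66 for Oasl2 (-1.15 to -0.18) and -0.71 for Ifit3 (-1.30 to -0.11), each with an adjusted p of 1.00. The summed level of the list was 396, 248 and 296 CPM in the GRD+L/D+L vehicle libraries and 295, 244 and 278 with Dex, so that pair 1 held most of the drop.

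Inflammatory genes that glucocorticoids lower in other cells had 16 of 22 members tested. Of these 2 were higher and 14 lower, with a median LFC of -0.21, and none passed. In GRwt/wt the median was -1.06, in GRL/L 0.0026 and in GRD/D -0.42. The 11 macrophage markers moved with the GRwt/wt value, at a median LFC of -5.23 there, with 4992 CPM of them in GRwt/wt vehicle replicate 3. Their median in GRD+L/D+L was 0.065. Their part in the GRwt/wt median was not tested. The matrix-degrading stromelysin Mmp3 read 38.6, 51.7 and 83.8 CPM with vehicle and 29.9, 45.8 and 75.0 with Dex, lower in each pair with a paired LFC of -0.23 (SE 0.061, adjusted p = 0.230). Mmp13, a collagenase, had -0.36 (SE 0.098, adjusted p = 0.259). In GRwt/wt the LFCs of Mmp3 and Mmp13 were positive, 2.09 and 0.96, and neither was called. The neutrophil chemokine Cxcl1 had a paired LFC of -0.76 (SE 0.321, adjusted p = 0.630). The monocyte chemokine Ccl2 was at 10.8, 26.8 and 34.3 CPM with vehicle and 7.18, 29.3 and 30.1 with Dex, lower in 2 pairs and higher in 1. Icam1, an adhesion molecule, read 13.1, 2.06 and 9.42 CPM with vehicle and 9.57, 1.90 and 9.69 with Dex. Vcam1 and Ptgs2 had LFCs of -0.027 and 0.084. Il6 and Tnf had at most 1.15 CPM.

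No member of the remaining lists passed a test. In the fit of all libraries without the block none was called in GRwt/wt either. GRwt/wt vehicle replicates 1 and 3, described above, enter the medians given for that genotype. Of 20 immediate early genes 11 were higher and 9 lower (median 0.0093), with Egr2 and Nr4a1 higher in each pair at paired LFCs of 0.30 (SE 0.109) and 0.26 (SE 0.089), adjusted p = 0.501 and 0.463. Fos, the AP-1 subunit, read 15.1, 12.3 and 15.4 CPM with vehicle and 18.4, 11.6 and 16.6 with Dex, with no common direction. Of 12 extracellular matrix genes 3 were higher and 9 lower (median -0.027), and Lox, a collagen cross-linker, had a paired LFC of 0.10 (SE 0.047). All 7 myofibroblast and YAP target genes tested had a positive LFC (median 0.082), 5 of them in each pair, while the GRwt/wt median was -0.68. Acta2, smooth muscle actin, read 272, 1492 and 1964 CPM with vehicle and 283, 1580 and 2084 with Dex, so the step per pair was small beside the distance between replicates. Sterol synthesis genes, 8 higher and 6 lower of 14, had a median of 0.0052, beside -0.49 in GRwt/wt. Hypoxia and glycolysis genes, 7 higher and 7 lower of 14, had a median of -0.0046, beside -0.41. Genes of the ATF4 stress response leaned lower, 1 higher and 11 lower of 12, with a median of -0.066, beside -0.51, and Slc7a11, the cystine importer, had a paired LFC of -0.27 (SE 0.103, adjusted p = 0.583). Of 14 cell cycle genes 9 were higher and 5 lower, with a median of 0.029, and Mki67, the proliferation marker Ki-67, read 118, 28.6 and 24.1 CPM with vehicle and 129, 34.2 and 32.1 with Dex, a paired LFC of 0.23 (SE 0.063, adjusted p = 0.235).

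The 11 genes past the adjusted threshold in the paired fit held 8 that rose and 3 that fell. The smallest adjusted p belonged to 3110039I08Rik, a long transcript on chr9:41327077-41716994 (plus strand, GRCm38) whose annotated span holds Mir100, Mirlet7a-2 and Mir125b-1. It stood at 131, 131 and 134 CPM with vehicle and 188, 166 and 163 CPM with Dex, with a paired LFC of 0.38 (SE 0.050, adjusted p = 0.000361). All Dex libraries lay above all vehicle libraries. Dnm3os, the host of Mir199a-2 and Mir214 on chromosome 1 that lies antisense to Dnm3, read 112, 183 and 299 CPM with vehicle and 138, 234 and 378 with Dex, a paired LFC of 0.33 (SE 0.046, adjusted p = 0.000449). It rose by a like step in each pair, from levels that differed between replicates.

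Spaca6, a sperm-egg fusion gene in whose span Mir99b, Mirlet7e and Mir125a lie, stood at 15.5, 17.9 and 20.3 CPM with vehicle and 21.5, 27.1 and 26.0 with Dex. Its paired LFC was 0.47 (SE 0.084, adjusted p = 0.00833), and its groups did not overlap. The nuclear long noncoding RNA Malat1 read 260.2, 299 and 493 CPM with vehicle and 342, 368 and 544 with Dex, with a paired LFC of 0.27 (SE 0.048, adjusted p = 0.00833). Bc1, a small brain cytoplasmic RNA transcribed by RNA polymerase III, read 12.6, 9.10 and 24.6 CPM with vehicle and 17.3, 21.8 and 32.8 with Dex, with 0.68 (SE 0.111, adjusted p = 0.0041), most in pair 2.

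Of the other genes that rose, Ttc14 had a paired LFC of 0.29 (SE 0.055), Kctd12, an auxiliary subunit of GABA-B receptors, 0.23 (SE 0.045) and Crybg3 0.29 (SE 0.058). In the fit of all libraries without the block, none of the 8 was called in another genotype. With the block Kctd12 was called in GRwt/wt by edgeR and DESeq2 and, with the 3 mutant genotypes, in GRD/D, and Crybg3 in GRwt/wt by DESeq2, in both cases on numbers that do not pair those libraries. Without the block their LFCs in GRwt/wt ran from -0.84 (Bc1) to 1.20 (Kctd12), with Spaca6 at -0.11 and the other 5 positive. In GRD/D they were 1.08 for Kctd12, 0.51 for Crybg3 and negative for the other 6, down to -0.60 for Spaca6. In GRL/L they lay between -0.14 (Malat1) and 0.018 (Kctd12). Il1rl1, the receptor for IL-33, fell by 0.37 on the log2 scale (SE 0.074, adjusted p = 0.0392), mostly through pair 1: it read 518, 11.3 and 37.1 CPM with vehicle and 344, 11.4 and 34.0 with Dex, and pair 2 did not follow. Several of the 8 are noncoding or overlap another gene (Ttc14 with Ccdc39, Crybg3 with Riox2), and whether reads were counted by strand is not given in the sources used here, so their counts may hold reads of a neighbour. In the block fit of the mutant genotypes the response of 3110039I08Rik, Dnm3os, Spaca6 and Bc1 minus that of GRL/L was 0.42, 0.36, 0.48 and 0.70 (adjusted p = 1.00 each). In the same fit 3110039I08Rik, Spaca6 and Bc1 were among the 32 genes called against GRD/D, whose libraries the numbers do not pair, and without the block none of them passed (adjusted p = 1.00 each).

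**Figure D5:**
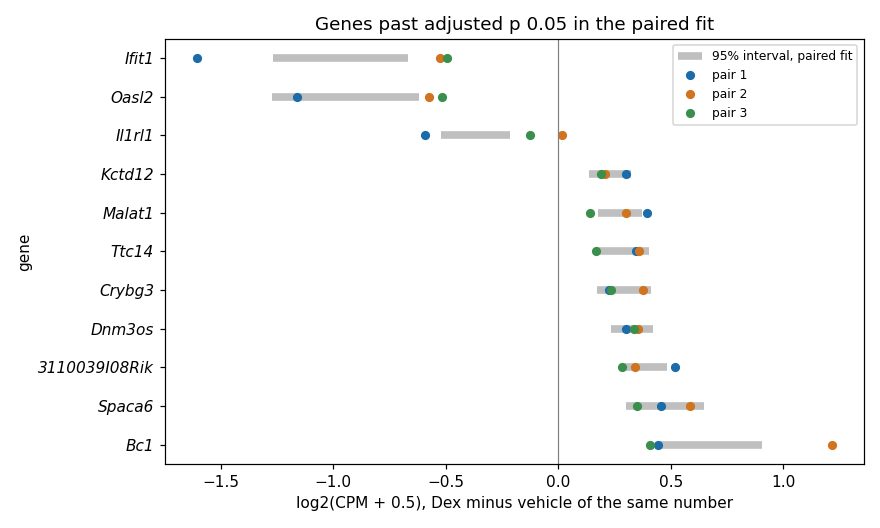
Difference of log2(CPM + 0.5), Dex minus vehicle, in each pair of GRD+L/D+L (coloured points) for the 11 genes with an adjusted p of at most 0.05 in the paired fit, with its 95% interval in grey. Points of the 8 genes that rose all lie right of 0, and those of Ifit1 and Oasl2 left of it, while pair 2 of Il1rl1 lies at about 0.

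The number of calls depended on which replicate numbers entered. Without both libraries of number 1, 2 or 3, the paired fit gave 48, 42 and 18 genes, and 7, 10 and 9 of the 11 were among them. Each of the 11 kept its sign each time. The 11 were chosen on these same pairs, and each of these fits holds only 2 pairs, so this is no independent check. With all libraries and the replicate block 0 genes passed, with 96 unadjusted p-values under 0.05 and a median standard error of 0.242. With the block in the 3 mutant genotypes 0 passed as well, by adjusted p alone too, with 693 unadjusted p-values under 0.05 and a median standard error of 0.0939, beside 0.0801 in the paired fit of the 6 libraries.

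Without pairing, the genes nearest to a call among those of at least 1 CPM moving the same way in every pair were of low to middle level. Gm15559, an RNA antisense to Pus1, read 0.622, 0.915 and 0.589 CPM with vehicle and 1.25, 1.38 and 1.32 with Dex, an LFC of 0.88 (95% interval 0.15 to 1.61, adjusted p = 1). Asb7, a subunit of a ubiquitin ligase, had 0.23 (0.016 to 0.44), and the chemokine Ccl25 0.46 (0.023 to 0.90). Downwards the list was led by the mitochondrial nuclease Endog (-0.39, -0.76 to -0.026) and Cmpk2 (-0.77, -1.51 to -0.037). With the replicate block Angpt2 and Wnt9a, a WNT ligand, came up: Wnt9a read 12.5, 27.4 and 28.7 CPM with vehicle and 9.79, 19.9 and 22.4 with Dex, a paired LFC of -0.40 (SE 0.086, adjusted p = 0.0739).

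The 5 genes called by DESeq2 were Clec4a2, Gpr34, Ms4a4a, Tnfrsf13b and Gm15931, the first 4 of them genes of macrophages or B cells. Each had at most 2 reads in any library of the comparison and no read in at least 4 of the 6 libraries. DESeq2 with the replicate block called 0 genes, with 74 unadjusted p-values under 0.05.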

How the data were processed

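RNA-seq was done on MEFs of 4 genotypes given vehicle or Dex. Per the labels and the study's methods, the authors aligned reads with HISAT2 2.1.0 to mm10 (GRCm38), kept unique alignments and counted them per gene with featureCounts 2.0.0, and the deposited values are raw counts. The annotation release and strand setting are not given in the sources used here. Of 55487 gene identifiers 55227 took symbols and positions from GENCODE M21.

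Groups came from the labels. edgeR 4.0.16 (R 4.3.3) was fitted to all 23 libraries with 8 group means, TMM factors, filterByExpr and a prior count of 0.125, and its quasi-likelihood test was used with Benjamini-Hochberg adjustment. An LFC is log2 Dex over vehicle and its interval is 95%. CPM are counts over the TMM-scaled library size, times 1000000. No interval is given where a group compared had no reads. Library totals of GRD+L/D+L were 17387952 to 23117080 counts. Only the fit of all libraries without pairing, for Dex in GRD+L/D+L, was tested on simulated data. These held no effect shared by equally numbered libraries. The paired fit, the block fits and the differences between genotypes were not tested in this way. Alternatives were RLE and upper-quartile factors, 2 filters, fewer genotypes in the fit, a replicate block, DESeq2 1.42.0, a prior count of 2 and leaving out libraries.

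Replicate numbers were checked for pairing by correlating the deviations of equally numbered vehicle and Dex libraries from their group means. r was 0.942, 0.870 and 0.820 in GRD+L/D+L, so the numbers were taken to pair its libraries, and 0.492, 0.786 and 0.779 in GRL/L. It was 0.583, 0.0817 and 0.0663 in GRwt/wt and 0.365 and -0.242 in GRD/D, where they were not taken to do so. The pairing comes from the data, not from a label. If cultures were not separate embryos, p-values measure only the spread between these libraries.

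Named genes were the receptor, Fkbp5, Tsc22d3 and Dusp1, members of functional lists, genes called in a fit, the 5 rises and 5 falls with the smallest p (at least 1 CPM, same direction in all pairs) with and without the block, genes called in GRwt/wt, and the 5 most variable between cultures. The 11 genes of the paired fit were added after their values were seen. Members and lists were chosen with earlier results of these data known. Promoters came from RefSeq (GRCm38.p6), matched by symbol. A few members of the gene lists count in the list totals, and their own values are not reported here.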

Additional observations from a re-analysis of the deposited data

Results flagged for a closer look

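The Dex response of 4 genes of GRD+L/D+L differed from that of GRwt/wt by a test of the difference itself (edgeR, Benjamini-Hochberg adjusted over 15748 genes, 3 libraries per group). The difference of LFCs was -3.42 for Fkbp5 (adjusted p = 0.000285), -1.91 for Per1 (adjusted p = 0.00681), -1.46 for Wee1 (adjusted p = 0.0103) and -1.47 for Zhx3 (adjusted p = 0.0362). All 4 belong to the genes called with Dex in GRwt/wt. With the replicate block Wee1 no longer passed (adjusted p = 0.0734).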

How the results depend on the processing

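No gene was called with Dex in GRD+L/D+L under RLE or upper-quartile factors, either filter, fewer genotypes, the replicate block, or without any 1 of the 6 GRD+L/D+L libraries or GRwt/wt vehicle replicate 1 or 3, the libraries that were left out in turn. DESeq2 called 5, and the paired fit by adjusted p alone 11. The latter count was 48, 42 and 18 without number 1, 2 and 3. The replicate block with the 3 mutant genotypes and the adjusted-p rule of the paired fit were added after seeing the data, as was leaving out both libraries of a number. The cause of these shifts was not tested.

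Genes whose response differed from GRwt/wt were 4, and 2 with no filter, 0 with only the genotypes compared, 1 with these and the replicate block, 16 with the block and all libraries, 22 by DESeq2 and 144 by DESeq2 with the block. They were 2 to 4 without 1 GRD+L/D+L library, and 8 and 9 without GRwt/wt vehicle replicate 1 and 3. Against GRL/L DESeq2 gave 5 in place of 0. Against GRD/D the count of 0 became 1 with only the 3 mutant genotypes, 32 with these and the replicate block, 14 with the block and the genotypes compared, 4 with the block and all libraries, 4 by DESeq2, 10 by DESeq2 with the block, and 1 without GRwt/wt vehicle replicate 1. The block over all libraries also took the calls with Dex from 25 to 199 in GRwt/wt and from 0 to 7 in GRD/D, and DESeq2's 5 calls in GRD+L/D+L, and its 5 against GRL/L, to 0. With it Fkbp5, Tsc22d3 and Dusp1 did not pass the test with Dex in GRD+L/D+L either.

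The median LFC of the glucocorticoid-induced list was -0.0847. It was -0.0772 with RLE factors, -0.0948 with upper-quartile factors, -0.0240 with 10 counts in every library, -0.0366 with GRD+L/D+L alone, -0.0381 with its replicate block, -0.0343 with the 3 mutant genotypes, -0.0918 with the block and all libraries and -0.0773 by DESeq2. Without 1 library it was -0.176 to -0.0518. The LFC of Tsc22d3 was -0.0078 with the block and all libraries. Without 1 library the LFC of Fkbp5 was -0.122 to 0.248, of Tsc22d3 -0.236 to 0.296 and of Dusp1 -0.239 to -0.0940, and none of the 3 passed the test. Fkbp5 and Tsc22d3 were negative without vehicle replicate 1 or Dex replicate 2, and Tsc22d3 also without Dex replicate 3. Of 1808 values of 126 named genes over the alternatives, 5 became significant by DESeq2. Another 30 changed sign and shifted by at least 1 standard error of the main fit, or changed sign where it gave none. Shifts without a change of sign were not counted. The sign of 184 of the 1808 was opposite to the reported one, 17 to 36 of them in each setting without 1 GRD+L/D+L library. Without pairing, the median standard error was 0.316, and the interval lay within -1 to 1 for 61.7% of the genes that had one. Changes of 2-fold could not be told from none in the rest.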
